A study of Rattus norvegicus with 12 samples.

Results

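The 6 genes described here carry glucose from the blood to pyruvate and set what becomes of it: Slc2a1 (ENSRNOG00000007284), Slc2a4 (ENSRNOG00000017226), Hk2 (ENSRNOG00000006116), Pkm (ENSRNOG00000011329), Ldha (ENSRNOG00000013009) and Pdk4 (ENSRNOG00000009565). They were named by Ensembl gene ID as genes of this pathway, and were chosen with earlier results of these data known. They are 6 of the 19955 genes listed in the deposited table. All 6 passed the filter on low values, a mean normalized signal of at least 1, which left 17091 genes. RNA was sequenced from hearts of wild-type Sprague Dawley rats after a sham operation (surgery without an infarct), after myocardial infarction (MI), or after an infarct onto whose edge a cardiac patch was sutured with silk thread (Patch). The Patch hearts carry an infarct as the MI hearts do, and no group was left without surgery. Sex, age, the time from surgery to sampling and the make of the patch are not given in the sources used here. The labels describe 4 samples in each group, and the columns that could be assigned to a group by name were 2 for sham, 4 for MI and 4 for Patch. Another 2 columns, ctrl1 and ctrl2, match no label and were not used here; whether they hold the remaining sham samples is not known, and each comparison with sham would differ if they do. Libraries are called here by the names of their columns.

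Glucose enters cells through carrier proteins of the membrane. Slc2a1 encodes GLUT1, the carrier of basal uptake in many cell types, and Slc2a4 encodes GLUT4, the carrier that insulin and contraction bring to the surface of heart and skeletal muscle and fat cells. Hexokinase 2 (Hk2) then traps glucose by phosphorylation, and pyruvate kinase (Pkm) makes pyruvate in the last step of glycolysis. Lactate dehydrogenase A (Ldha) turns pyruvate into lactate, and pyruvate dehydrogenase kinase 4 (Pdk4) holds pyruvate out of the mitochondria's oxidation by inactivating the pyruvate dehydrogenase complex. The adult heart lives mainly on fatty acids and turns more to glucose under hypoxia or overload.

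In the infarcted hearts the RNA of the insulin-responsive carrier Slc2a4 and of Ldha was lower than in sham, and in the hearts with a patch both were higher than in the infarcted hearts. Leaving out any library but MI2 and P699, or fitting only the 2 groups compared, put the limma adjusted p of both genes at 0.0518 to 0.206. The differences kept their direction, and fewer genes were called in all: 0.041 to 14% of all genes between MI and sham without 1 of those 8 libraries, against 15.4% with all of them, and 1.22 to 9.76% between Patch and MI, against 13.2%. With all libraries, Slc2a4 also lost both calls in edgeR (adjusted p 0.0773 and 0.0795). Ldha lost both with equal total reads (limma adjusted p 0.0716 and 0.0510). Pkm was lower in every MI library than in every sham and Patch library. The amount was smaller and did not pass in limma with all libraries and equal weights. Slc2a1 did not share the lower values in MI. Its mean was lowest in sham and highest in Patch, but MI overlapped with both and no difference of Slc2a1 passed. Hk2 overlapped between all groups, and Pdk4 differed so much between the sham libraries that its level after infarction could not be set firmly against them.

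The promoters of Slc2a1 and Ldha are shown because both genes are textbook targets of the hypoxia-inducible factors. They are also the 2 of the 5 promoters searched that hold the letters ACGTG. Whether the other genes are targets too was not considered, so these matches do not separate targets from other genes. The RNA of Slc2a1 and Ldha was only weakly correlated here (Pearson's r = 0.163 over the 10 libraries). For MI against sham the log2 difference was 0.40 for Slc2a1, which did not pass, and -0.90 for Ldha. For Patch against MI both were positive, at 0.42 for Slc2a1, which did not pass either, and 0.79 for Ldha. Each sequence covers 250 bases before to 50 bases after the gene's start, from RefSeq on build GRCr8, whereas the submitters' processing notes name rn6. Capitals mark each match to ACGTG, a form of the core of the hypoxia response element, on either strand. The form GCGTG was not searched and is not marked.
Slc2a1, chr5:138002272-138002571, plus strand: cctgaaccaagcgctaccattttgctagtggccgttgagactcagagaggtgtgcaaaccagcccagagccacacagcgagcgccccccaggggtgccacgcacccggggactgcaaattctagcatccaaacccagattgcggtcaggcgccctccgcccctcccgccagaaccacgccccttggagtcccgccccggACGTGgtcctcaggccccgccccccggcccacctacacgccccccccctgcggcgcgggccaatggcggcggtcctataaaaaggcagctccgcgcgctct
Ldha, chr1:106507842-106508141, plus strand: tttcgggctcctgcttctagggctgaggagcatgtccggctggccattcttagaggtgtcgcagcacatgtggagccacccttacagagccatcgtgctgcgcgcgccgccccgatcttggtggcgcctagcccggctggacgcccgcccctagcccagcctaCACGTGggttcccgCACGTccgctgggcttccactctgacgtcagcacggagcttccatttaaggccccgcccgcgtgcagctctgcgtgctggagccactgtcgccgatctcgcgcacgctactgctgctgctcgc
In Slc2a1 ACGTG occurs 1 time, beginning 51 bases before the start. In Ldha it was found 3 times: 2 of the matches are the same palindrome, the E-box CACGTG 87 bases before the start, read on both strands, and the third begins 73 bases before the start. None of the promoters of Hk2, Pkm and Pdk4 holds these 5 letters in the same window, and Slc2a4 has no entry in the promoter table. Of all 33469 promoters of this length, 19.3% hold ACGTG on either strand and 6.4% hold CACGTG. The GC box GGGCGG occurs in 4 of the 5 promoters searched (Slc2a1, Pkm, Ldha and Pdk4) and in 33.1% of all. The share of G and C was 51% in Hk2 and 61.3 to 68.3% in the other 4, against a median of 51.7% over all promoters. These matches describe letters only. They show neither binding nor its absence.

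Recovered depth was 11420710 to 14110864 reads per library, and the members had between 188 and 14241 reads each, so that counting error alone is at most 7.29% (SD) of a value. The protocol names no molecular identifiers, so this limit leaves out duplication in PCR. Across all genes tested in limma, 15.4% were called between MI and sham with a threshold of 0.05 on the adjusted p (in MI, 1248 were higher and 1388 lower), 13.2% between Patch and MI (1320 higher and 931 lower in Patch), and 0% between Patch and sham. With libraries scaled to equal total reads the split was 2231 higher and 808 lower for MI versus sham, and 802 higher and 1857 lower for Patch versus MI. The median log2 difference of all genes then moved from 0.01 to 0.24 and from 0.002 to -0.17. The library MI2 stood apart: 5474 genes were at 0 there, against 2400 to 2736 in the other MI libraries, and each gene's differences from MI are also given without it. Nothing says whether the libraries of a group came from separate animals, and p-values measure only the spread between these libraries, which may be technical. In whole heart tissue, fewer cells of a type and less RNA per cell cannot be told apart, and markers of heart muscle and other cell types were not analysed here, because the table's IDs could not be paired with their symbols.

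**Figure D1:**
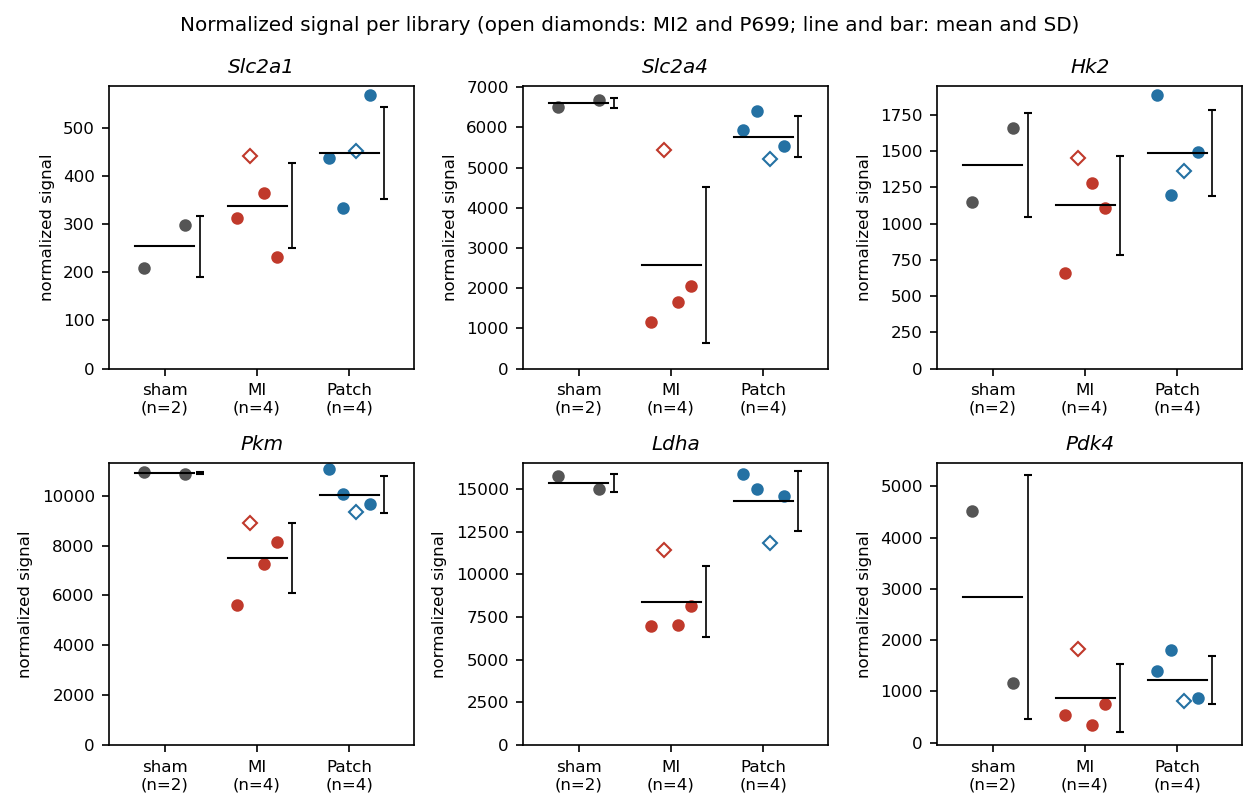
Normalized signal of each gene in each library, on a linear axis from 0, with sham in grey, MI in red and Patch in blue; lines and bars give the group mean and SD (n = 2, 4 and 4), and open diamonds mark MI2 and P699. Slc2a4, Pkm and Ldha lie lower in MI than in sham in every library, whereas the mean of Slc2a1 is highest in Patch, with values that overlap those of MI.

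The glucose carriers came first. Slc2a4 had a normalized signal of 6509 and 6689 in sham1 and sham2. In MI it was at 1169 in MI1, 1657 in MI162, 2061 in MI165 and 5432 in MI2. In Patch it was at 5211 in P699, 5529.8 in P985, 5945 in P695 and 6399.7 in P697. Every MI library lay below both sham libraries, and 3 of the 4 lay far below every Patch library, while MI2 lay within the Patch range. Sham averaged 6599 ± 127 (SD, n = 2), MI 2580 ± 1936 (SD, n = 4) and Patch 5771 ± 515 (SD, n = 4). Infarcted hearts thus had 39.1% of the mean sham signal, and hearts with a patch 87.5%.

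On the log2(signal + 1) scale, which all differences below use, Slc2a4 fell by 1.61 in MI against sham (SE 0.451, limma adjusted p 0.0351), a 3.06-fold lower level. Only 3.46% of all genes had a more negative difference. It rose by 1.41 in Patch against MI (SE 0.368, limma adjusted p 0.0325), or 2.67-fold. These comparisons share the MI libraries, so their opposite signs are not independent of each other. Without MI2 the differences were -2.06 (SE 0.216, limma adjusted p 0.000541) and 1.86 (SE 0.181, limma adjusted p 0.000415), and the remaining MI libraries averaged 1629 ± 447 (SD, n = 3), 24.7% of the sham mean. The adjusted p rose above the threshold, with differences of -1.63 to -1.32 against sham and 1.12 to 1.43 for Patch versus MI, when any of sham1, sham2, MI1, MI162, MI165, P695, P697 or P985 was left out (limma adjusted p 0.0522 to 0.189 against sham and 0.0518 to 0.0950 for Patch versus MI). In edgeR on the recovered reads the adjusted p was 0.0773 and 0.0795, and without MI2 0.000919 and 0.000859. With all libraries both comparisons passed in DESeq2 (adjusted p 0.0216 and 0.0175) and with limma sample weights (adjusted p 0.000470 and 0.000661). Those weights counted MI2 least (0.193), then MI1 (0.385), against 0.9655 or more for each other library, so they come near to leaving MI2 out.

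Slc2a1, the basal carrier, had a signal of 209 and 299 in the sham libraries. In the MI libraries it was at 232 in MI165, 313 in MI1, 364 in MI162 and 442 in MI2, and the Patch libraries had 334 in P697, 437 in P695, 452 in P699 and 568 in P985. MI overlapped with both other groups, whereas all 4 Patch libraries lay above both sham libraries. Its mean increased in the order sham, 254 ± 63.7 (SD, n = 2), MI, 338 ± 88.3 (SD, n = 4), and Patch, 448 ± 95.9 (SD, n = 4), and neighbours in that order did not differ beyond their spread in the test given next.

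No difference of Slc2a1 passed the threshold. Patch exceeded sham by 0.81 (SE 0.276, 95% interval 0.21 to 1.42, unadjusted limma p 0.0131, adjusted p 1), and 92.2% of all genes had a lower difference. The difference was 0.40 for MI against sham (95% interval -0.21 to 1.00, limma adjusted p 0.365) and 0.42 for Patch against MI (95% interval -0.08 to 0.91, limma adjusted p 0.235). Without MI2 these were 0.25 (95% interval -0.33 to 0.83, limma adjusted p 0.501) and 0.56 (95% interval 0.08 to 1.05, limma adjusted p 0.0811). The value for MI against sham ranged from 0.14 without sham1 to 0.65 without sham2 and was 0.64 with equal total reads (95% interval 0.05 to 1.23, limma adjusted p 0.121). The value for Patch against MI was as low as 0.25 without MI165 and 0.24 with equal total reads (limma adjusted p 0.480). For Patch against sham the value stayed positive under each alternative, between 0.56 without sham1 and 1.07 without sham2.

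Because a ratio of signals within a library does not depend on the library's scaling, Slc2a1 was set against Slc2a4. No gene length was used, so only the change of this ratio between libraries can be read. It was 0.0321 and 0.0447 in sham, 0.0814 (MI2), 0.113 (MI165), 0.219 (MI162) and 0.268 (MI1) in MI, and 0.0522 (P697) to 0.103 (P985) in Patch. Every MI and every Patch library had more Slc2a1 per Slc2a4 than either sham library. As log2 ratios, sham averaged -4.72 ± 0.339 (SD, n = 2), MI -2.71 ± 0.806 (SD, n = 4) and Patch -3.71 ± 0.418 (SD, n = 4). MI and Patch overlapped through MI2, and without it the lowest MI ratio, 0.113, lay above the highest of Patch. The ratios are descriptions and were not tested.

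**Figure D2:**
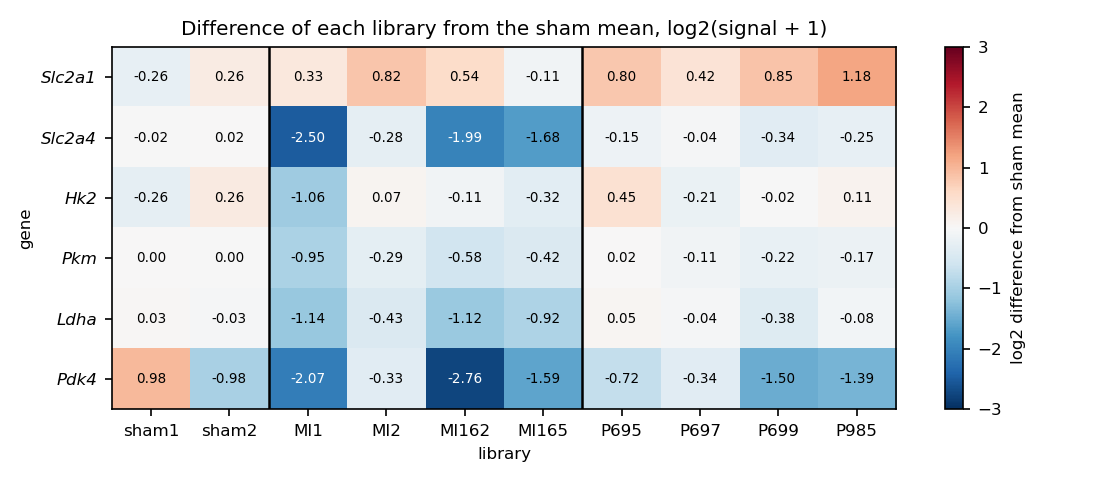
Difference of each library (columns; sham, MI and Patch divided by lines) from the sham mean for each gene (rows) on the log2(signal + 1) scale, red higher and blue lower. MI1, MI162 and MI165 are blue for Slc2a4 (-2.50 to -1.68) and for Ldha (-1.14 to -0.92), and Patch is red for Slc2a1 (0.42 to 1.18).

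Hk2, the hexokinase of muscle, was at 1149 and 1659 in sham. Its MI values were 661 in MI1, 1105 in MI165, 1282 in MI162 and 1453 in MI2, and its Patch values 1198 in P697, 1365 in P699, 1495 in P985 and 1888 in P695. The groups overlapped, with MI1 and MI165 below every sham and Patch library. The difference was -0.35 for MI against sham (95% interval -1.004 to 0.30, limma adjusted p 0.456), 0.44 for Patch against MI (95% interval -0.09 to 0.97, limma adjusted p 0.243) and 0.09 for Patch against sham (95% interval -0.56 to 0.74, limma adjusted p 1). Without MI2 the comparisons with MI gave -0.50 (95% interval -1.13 to 0.14, limma adjusted p 0.225) and 0.58 (95% interval 0.05 to 1.12, limma adjusted p 0.0960). The difference between MI and sham was also -0.09 without sham2, -0.12 without MI1, -0.62 without sham1 and -0.11 with equal total reads, and that between Patch and MI was 0.20 without MI1 and 0.26 with equal total reads. The difference between Patch and sham changed sign without sham1 (-0.18) or without P695 (-0.04). No comparison of Hk2 passed the threshold.

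Relative to Slc2a4, however, Hk2 was higher in every MI library than in sham. The ratio of signals was 0.177 and 0.248 in sham, 0.267 in MI2 and 0.536 to 0.774 in the other MI libraries, and 0.187 to 0.318 in Patch. Patch overlapped with sham, and MI overlapped with Patch through MI2 alone. Thus the carrier's RNA was lower in MI by more than that of the enzyme that follows it, a difference that was not tested.

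Pkm, which makes pyruvate, was nearly equal in the sham libraries, at 10941 and 10869.6. The MI libraries had 5633 (MI1), 7276 (MI162), 8139.8 (MI165) and 8899 (MI2), and the Patch libraries 9354 (P699), 9659.8 (P985), 10082 (P697) and 11057 (P695). No MI library reached the lowest sham or Patch value. The sham mean was 10905 ± 50.3 (SD, n = 2), that of MI 7487 ± 1403 (SD, n = 4) and that of Patch 10038 ± 742 (SD, n = 4).

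With all libraries and equal weights in limma, the Pkm difference did not pass in either comparison with MI. It was -0.56 for MI against sham (SE 0.219, limma adjusted p 0.105) and 0.44 for Patch against MI (SE 0.179, limma adjusted p 0.121). Leaving out MI2 brought both past the threshold, at -0.65 (SE 0.196, limma adjusted p 0.0305) and 0.53 (SE 0.164, limma adjusted p 0.0355). With all libraries it also passed in both with limma sample weights (adjusted p 0.0243 and 0.0416) and in DESeq2 (adjusted p 0.0198 and 0.0299), but not in edgeR (adjusted p 0.105 and 0.120). With equal total reads the differences were smaller, at -0.32 (limma adjusted p 0.300) and 0.26 (limma adjusted p 0.299), and neither passed. Pkm encodes the M1 and M2 forms of the enzyme by alternative splicing, and a count per gene does not separate them.

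Ldha, which diverts pyruvate to lactate, was the other gene called. Its signal was 15746 and 15009 in sham1 and sham2, then 6996 in MI1, 7054 in MI162, 8137 in MI165 and 11429.7 in MI2. In Patch it was 11835 in P699, 14573 in P985, 14983 in P697 and 15907 in P695. The groups MI and Patch did not overlap, nor did MI and sham, while 3 of the Patch libraries lay near the sham range and P699 lay just above MI2. Sham averaged 15377 ± 521 (SD, n = 2), MI 8404 ± 2084 (SD, n = 4) and Patch 14324 ± 1751 (SD, n = 4), so that MI had 54.6% and Patch 93.2% of the sham mean.

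Ldha fell by 0.90 in MI against sham (SE 0.255, limma adjusted p 0.0367; 1.87-fold lower) and rose by 0.79 in Patch against MI (SE 0.208, limma adjusted p 0.0336; 1.73-fold higher). Without MI2 the values were -1.06 (SE 0.197, limma adjusted p 0.00352) and 0.95 (SE 0.165, limma adjusted p 0.00274). The adjusted p rose above the threshold, with differences of -0.94 to -0.82 and 0.71 to 0.79, without any of sham1, sham2, MI1, MI162, MI165, P695, P697 or P985 (limma adjusted p 0.0551 to 0.206 against sham and 0.0560 to 0.110 for Patch versus MI), and with equal total reads, where the differences were -0.66 and 0.61 (limma adjusted p 0.0716 and 0.0510). The calls held in edgeR on the recovered reads (adjusted p 0.0375 and 0.0367), in DESeq2 (adjusted p 0.00142 and 0.000682) and with limma sample weights (adjusted p 0.00245 and 0.00243).

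Within a library, Ldha per Pkm was also lower after infarction. The ratio of signals was 1.38 and 1.44 in sham, 0.970 (MI162), 1.00 (MI165), 1.24 (MI1) and 1.28 (MI2) in MI, and 1.26 in P699 and 1.44 to 1.51 in the other Patch libraries. All 4 MI libraries lay below both sham libraries, and only P699 among the Patch libraries fell within the MI range. Without MI2 the highest MI ratio was 1.24, below all 4 Patch libraries. In log2 terms sham averaged 0.50 ± 0.0423 (SD, n = 2), MI 0.16 ± 0.209 (SD, n = 4) and Patch 0.51 ± 0.116 (SD, n = 4).

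**Figure D3:**
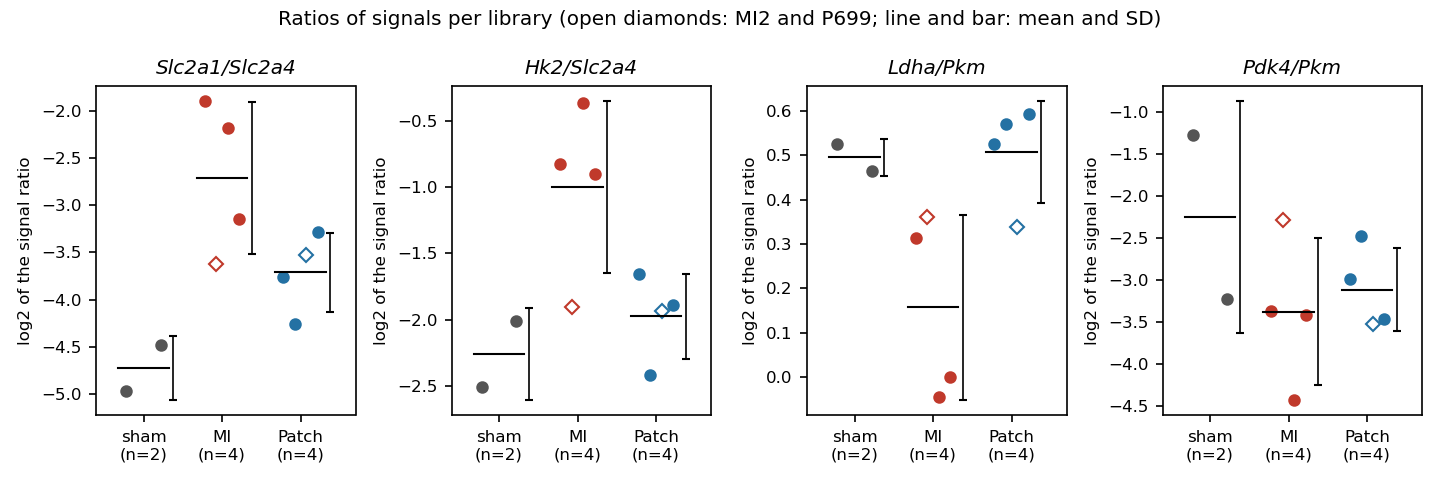
Log2 ratio of the signals of 2 genes in each library for Slc2a1 per Slc2a4, Hk2 per Slc2a4, Ldha per Pkm and Pdk4 per Pkm, by group (n = 2, 4 and 4); lines and bars give mean and SD, and open diamonds mark MI2 and P699. Slc2a1 per Slc2a4 is lowest in sham (mean -4.72) and highest in MI (mean -2.71), and the vertical axes differ between panels.

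Pdk4, the gatekeeper between glycolysis and the mitochondria, varied most within groups. Its signal was 4519 in sham1 and 1164 in sham2, a 3.88-fold gap. The MI libraries had 339 (MI162), 545 (MI1), 761 (MI165) and 1827 (MI2), and the Patch libraries 812 (P699), 876 (P985), 1390.4 (P695) and 1816 (P697). MI2 lay above sham2 and above all 4 Patch libraries, and the other MI libraries lay below every sham and Patch library. The SD was close to the mean in sham, 2842 ± 2372 (SD, n = 2), and in MI, 868 ± 662 (SD, n = 4), and smaller in Patch, 1224 ± 472 (SD, n = 4). Without MI2 the MI mean was 548 ± 211 (SD, n = 3).

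None of the Pdk4 differences passed in limma with all libraries and equal weights. The difference was -1.69 for MI against sham (SE 0.644, limma adjusted p 0.0992), 0.70 for Patch against MI (SE 0.526, limma adjusted p 0.400) and -0.99 for Patch against sham (95% interval -2.40 to 0.43, limma adjusted p 1). Without MI2 the first passed, at -2.14 (SE 0.545, limma adjusted p 0.0150), while the second, 1.15 (SE 0.456, limma adjusted p 0.0845), did not. With all libraries MI against sham passed with limma sample weights (adjusted p 0.0214) and in DESeq2 (adjusted p 0.0304), but not in edgeR (adjusted p 0.0962). The differences from sham moved most with the sham libraries: without sham1 the difference was -0.71 for MI and -0.01 for Patch, and without sham2 it was -2.66 and -1.96. Without MI162 it was -1.33 for MI against sham and 0.34 for Patch against MI. Pdk4 per Pkm overlapped between all groups, at 0.107 and 0.413 in sham, 0.0466 to 0.205 in MI and 0.0868 to 0.180 in Patch. The overlap of MI with sham came from MI2 alone: without it the highest MI ratio was 0.0967, below both sham libraries and still within the Patch range.

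**Figure D4:**
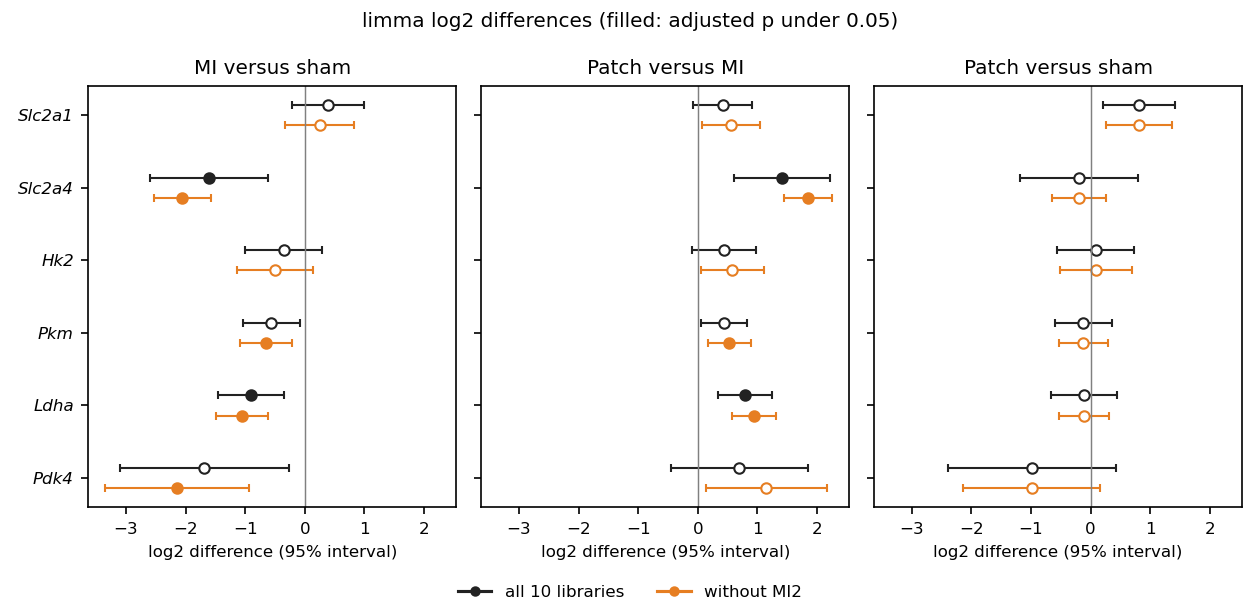
limma log2 differences (points) with 95% intervals for each gene in the 3 comparisons, with all 10 libraries in black and without MI2 in orange; filled points have an adjusted p under 0.05 over all genes tested. Slc2a4 and Ldha are filled in MI versus sham and Patch versus MI, Pkm joins them without MI2, as does Pdk4 in MI versus sham, and no point is filled in Patch versus sham.

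As a set, 2 of the 6 genes were called lower in MI than in sham (8.12% of all genes tested), none higher (7.3%), and 2 of 6 were called higher in Patch than in MI (7.72%), none lower (5.45%). In both comparisons these were Slc2a4 and Ldha. Without MI2 there were 4 lower in MI, with Pkm and Pdk4 added (14.5% of all genes), and 3 higher in Patch, with Pkm added (14.5%). Without regard to p, 3 of 6 genes did not overlap and were lower in MI than in sham (18.6% of all genes), and 2 of 6 did not overlap and were higher in Patch than in MI (9.81%). Without MI2 these numbers were 4 of 6 (24.5% of all genes) and 4 of 6 (17.5%). The median log2 difference of the 6 was -0.73 for MI against sham and 0.57 for Patch against MI, where the medians over all genes were 0.01 and 0.002. Regardless of sign, the medians were 0.73 and 0.57 for the 6, against 0.52 and 0.43 over all genes. The 6 were chosen with earlier results known, and their medians were not tested.

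Patch against sham asks what still differed with the patch in place. Of the 6 genes, 0 were called in limma (0% of all genes), in edgeR (0%) or in DESeq2 (0.0878%, or 15 genes). An unadjusted limma p under 0.05 was found for 1 of the 6, Slc2a1, and for 3.07% of all genes. The 95% intervals were -0.60 to 0.36 for Pkm, -0.67 to 0.45 for Ldha and -1.19 to 0.79 for Slc2a4. The fit held all 3 groups, so the spread of MI entered these intervals. For Slc2a4 the interval was -0.65 to 0.26 without MI2 and -0.47 to 0.08 with only the 2 groups compared. These intervals do not show that the groups were equal. For Slc2a4 all 4 Patch libraries lay below both sham libraries and for Slc2a1 all 4 lay above, as did 9.37% and 9.18% of all genes in those directions.

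The order of libraries within a group was shared by several of the genes. Among the MI libraries MI1 was lowest, then MI162, MI165 and MI2, for each of Slc2a4, Pkm and Ldha. Slc2a1, Hk2 and Pdk4 had other orders, and the share of all genes with this full order was not counted. MI2 was the highest MI library for 6 of the 6 genes, as it was for 28.1% of all genes. Among the Patch libraries P699 was lowest for Slc2a4, Pkm, Ldha and Pdk4, 4 of the 6, against 29.1% of all genes. MI2 was also the library with 5474 genes at 0, and the part of that in its position was not tested.

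Likeness of pattern was measured by Pearson's r of log2(signal + 1) over the 10 libraries, against the 11434 other genes whose signal averaged 50 or more. The libraries fall into groups, and r was not divided into parts between and within them. It is a description without a test. The gene most like Ldha was ENSRNOG00000007799 (r = 0.996) and the gene most like Slc2a4 was ENSRNOG00000058068 (r = 0.993), and the table does not pair these IDs with names. An r over 0.9 was reached by 11.1% of the genes with Ldha, 8.47% with Slc2a4 and 7.21% with Pkm, but by 0.105% with Pdk4, 0.0525% with Hk2 and 0% with Slc2a1. The pattern of Slc2a4, Ldha and Pkm was thus common in these hearts, and that of Slc2a1 had no near match.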

How the data were processed

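Gene expression was measured by RNA sequencing of polyadenylated RNA from rat hearts. The deposited table holds a normalized signal per gene and library. Per the submitters' processing notes, HISAT2, SAMtools, featureCounts, DESeq2 and the build rn6 were used, with their roles, versions and settings not given in the sources used here; neither is the handling of strand or of reads shared by similar genes. Within each library the deposited signal was a whole multiple of a constant step, so that whole reads were recovered for 100% of values (within 0.01). Columns were assigned to groups by name. The columns ctrl1 and ctrl2 matched no label, may hold the other 2 sham samples, and were not used, so sham has 2 libraries where the labels describe 4.

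The main test was limma 3.58.1 (R 4.3.3), with the signal as log2(signal + 1), a mean-variance trend and all 3 groups in a single fit. Genes whose signal averaged 1 or more entered it, Benjamini-Hochberg adjustment ran over all of them, and calls were made at 0.05. edgeR 4.0.16 (quasi-likelihood) and DESeq2 1.42.0 on the recovered reads were alternatives. Other alternatives changed pseudocount, filter, scaling, sample weights or the libraries used. Pairs of libraries within a group differed by far more than sampling noise (mean chi-square per gene 18.1 or more). Figures and promoter searches used Python 3.11.15 with pandas 2.3.3 and matplotlib 3.10.9.

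The 6 genes, the tests and the lists were chosen with earlier results of these data known. Named are the 6 genes and, by ID, the genes most like them in pattern, at most 2. Of the table's IDs, 0 matched the gene table used here, so 4 lists of other pathway genes and 9 of cell type markers were not analysed here. All 6 symbols were found there, and 5 had a promoter sequence.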

Additional observations from a re-analysis of the deposited data

Results flagged for a closer look

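Each set of 4 values of a group was searched for a library that stands far from the rest. Of 26 such sets, which cover the signals and ratios of the 6 genes and measures of the libraries, 2 met the criterion, and about 1.3 would by chance. Both concern MI2. Its number of genes at 0 was 5474, compared with 2736 in the MI library closest to it. The average number of genes per read number was 1.305 times as large between 8 and 18 reads as between 2 and 6 reads in MI2, compared with 0.309 times in the closest one. No set made from the 6 genes met the criterion, although MI2 was the highest MI library for each of them.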

How the results depend on the processing

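Each of the 18 differences (6 genes in 3 comparisons) was recomputed under 22 alternatives. Of these 396 values, 339 kept their direction and their side of the threshold, 40 lost a call, 15 gained one and 2 changed sign, both for Hk2 in Patch versus sham (-0.179 without sham1, -0.0358 without P695, and 0.351 at most, without sham2). edgeR without MI2 was added after seeing the data. A block on replicate numbers had been planned. No paired analysis was possible because the column names do not carry the replicate numbers of the labels.

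Shares of all genes called in the same direction stand in brackets. The 2 genes called in MI versus sham became 1 with equal total reads (4.71%) or in edgeR (6.8%) and 0 with only the 2 groups compared (0.949%). They became 4 in DESeq2 (11.1%), with sample weights (16.8%), without MI2 and P699 together (13.9%) and in edgeR without MI2 (13.5%); leaving out a library gave 0 (0.00585% without sham1, 0.0234% without sham2, 4.42 to 7.43% in the other 6 that gave 0) to 4 (14.5%, without MI2). The 2 called in Patch versus MI became 1 with equal total reads (4.68%) or in edgeR (5.28%) and 0 with only the 2 groups compared (4.71%). They became 3 in DESeq2 (10.7%), with sample weights (16.2%), without MI2 and P699 (14.1%) and in edgeR without MI2 (13.3%); leaving out a library gave 0 (0.591%, without P695, to 5.65%, without MI1) to 3 (14.5%, without MI2). In Patch versus sham the number stayed at 0 under all 22.

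Over all genes, the 2636 of MI versus sham became 3948 in DESeq2, 599 with just the 2 groups in the fit, 5679 with sample weights, 4867 without MI2 and P699, 4687 in edgeR without MI2, and 7 (without sham1) to 4979 (without MI2) when a library was left out. The 2251 of Patch versus MI became 3701 in DESeq2, 1437 with the 2 groups, 5383 with sample weights, 4856 without MI2 and P699, 4643 in edgeR without MI2, and 209 (without P695) to 4821 (without MI2). The 0 of Patch versus sham (524 at an unadjusted limma p under 0.05) became 15 in DESeq2, 10 with sample weights and 0 to 2 without a library. Fits with 2 groups or without a library use fewer samples, but the counts of both comparisons with MI rose without MI2. The cause of that rise, and of the changes under the other settings, was not tested. Without a sham library, the remaining sham library is assumed to vary like the other groups. Depth gives the 6 genes a counting error of at most 7.29%, while sham1 and sham2 differ by 1.43-fold or more for Slc2a1, Hk2 and Pdk4.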
